A study of Mus musculus with 2 samples.

Results

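Open chromatin was examined at 10 genes of the IL-6, IL-10 and IL-12 axis in mouse blood monocytes: the cytokine genes Il6, Osm, Il10, Il12a, Il12b, Il23a, Il27 and Il15 and the receptor genes Il6ra and Il10ra. Open regions were assigned to a gene when the summit of a merged peak lay in its gene body, or within 100 kb of its transcription start site (TSS) with that TSS the nearest one of any protein-coding gene. The peaks were those of the authors' conservative set of the series, which keeps peaks whose rank was reproducible between the replicates by the irreproducible discovery rate (IDR). Of 21853 protein-coding genes, these 10 were taken, and of 28438 open regions, 29 were assigned to them. The assay was ATAC-seq, in which the Tn5 transposase cuts accessible DNA and leaves sequencing adapters there. The C57BL/6J mice were adults of 5 to 6 weeks, the cells were primary monocytes of their peripheral blood, and 50000 cells went into each library. The labels name no treatment and no genetic change. There was 1 group of 2 biological replicates and no control group, so no contrast between conditions could be tested. Both replicates carry 1 donor identifier and the labels do not say that different animals were used, so their SD may measure technical spread alone.

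Values are fold enrichments, the authors' own score of each peak over background, and the −log10 p of the same peak. The deposited READMEs name a further input of the peak lists without saying what it is, so what the background was made from is not known here. A fold describes a peak within its list, and the depth of the libraries is unknown because the lists hold no read counts. In the conservative set, promoters were open at 8 of 9 monocyte markers, with Ccr2 as the exception at 3 distal regions and no open promoter. Among markers of other blood cells, promoters were open at 1 of 6 T-cell genes (Cd3d), 2 of 6 B-cell genes (Cd79b and Pax5), 1 of 6 natural killer cell genes (Prf1), 1 of 5 dendritic cell genes (Flt3), 1 of 3 erythroid genes (Klf1), 0 of 7 neutrophil genes and 0 of 4 platelet genes. Counting distal regions too, at least 1 region was assigned to 9 of 9 monocyte genes, 4 of 6 T-cell, 5 of 6 B-cell, 5 of 6 natural killer cell, 4 of 5 dendritic cell, 4 of 7 neutrophil, 1 of 3 erythroid and 1 of 4 platelet genes. Among the defining markers, Cd4, Cd8a, S100a8, Gata1 and Pf4 had none. By pooled fold, the Cd3d promoter stood at 12.1, above the 3.82 to 7.17 of the 8 open monocyte promoters. The other open promoters of non-monocyte markers, from 3.89 at Cd79b to 6.72 at Prf1, lay within that range. The part of other cell types in the regions described here was not tested.

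As background, IL-6 and oncostatin M, the product of Osm, signal through receptors that contain the shared subunit encoded by Il6st and activate JAK kinases and STAT3. IL-10 acts through the receptor chains encoded by Il10ra and Il10rb, also activates STAT3, and restrains the production of inflammatory cytokines by monocytes and macrophages. The subunit genes Il12a and Il12b together encode IL-12, Il23a and Il12b together encode IL-23, and Il27 pairs with Ebi3 to form IL-27; these cytokines direct T-cell responses and are made by activated phagocytes and dendritic cells. IL-15, which supports natural killer cells and memory T cells, is presented on the surface of myeloid cells bound to its receptor chain.

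The sequences that the results turn on are the summits of the strongest region of several genes, 100 bases to each side of the summit, shown on the plus strand of GRCm38. Capitals mark strings searched on both strands: GAGGAAGT and its core GGAAGT (ETS factors, among them PU.1), TGANTCA (AP-1), TTGCNNAA (C/EBP), GGGA and TTCC with any 2 bases between them (NF-kB), GAAA and GAAA with any 2 bases between them (IRF), TTCNNNGAA (STAT), TGTGGT (RUNX) and TGACGTCA (CRE). The longer ETS string contains the core, and in the Il12b sequence the NF-kB string contains an ETS core. The Il10 sequence, shown for its paired AP-1 strings, is at chr1:131038185-131038385.
Il10 downstream region: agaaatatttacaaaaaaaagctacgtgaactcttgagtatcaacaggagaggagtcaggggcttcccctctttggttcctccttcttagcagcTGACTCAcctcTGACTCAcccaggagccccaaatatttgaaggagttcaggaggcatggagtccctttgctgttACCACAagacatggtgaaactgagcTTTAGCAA
The strongest region of all 10 genes lies in an intron of Il15, at chr8:82383436-82383636.
Il15 strongest intronic region: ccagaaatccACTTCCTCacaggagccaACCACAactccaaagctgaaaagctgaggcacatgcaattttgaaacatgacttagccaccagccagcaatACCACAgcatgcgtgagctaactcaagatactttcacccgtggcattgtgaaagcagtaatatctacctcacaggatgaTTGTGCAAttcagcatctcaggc
A further Il15 region, at chr8:82398623-82398823, is shown for its IRF strings and was chosen after its values were seen.
Il15 start-proximal intronic region: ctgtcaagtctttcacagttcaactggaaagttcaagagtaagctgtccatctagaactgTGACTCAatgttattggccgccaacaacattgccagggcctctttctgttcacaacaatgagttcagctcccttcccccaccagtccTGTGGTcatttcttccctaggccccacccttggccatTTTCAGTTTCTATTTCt
The Il6ra sequence, with an ETS string that starts 5 bases before the summit and covers it, is at chr3:89911299-89911499.
Il6ra intronic region: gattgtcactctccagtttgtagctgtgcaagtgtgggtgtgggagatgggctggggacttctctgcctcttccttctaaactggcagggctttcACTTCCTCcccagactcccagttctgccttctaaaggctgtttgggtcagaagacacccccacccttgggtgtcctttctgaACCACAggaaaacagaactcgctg
The Il10ra sequence, at chr9:45280990-45281190, is the strongest of the largest group of regions.
Il10ra upstream region: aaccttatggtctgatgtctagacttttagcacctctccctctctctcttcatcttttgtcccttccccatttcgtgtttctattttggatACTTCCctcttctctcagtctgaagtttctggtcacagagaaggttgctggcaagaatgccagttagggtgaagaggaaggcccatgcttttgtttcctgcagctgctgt
The Il12b sequence, at chr11:44399033-44399233, holds the only NF-kB string found in the 29 windows.
Il12b upstream region: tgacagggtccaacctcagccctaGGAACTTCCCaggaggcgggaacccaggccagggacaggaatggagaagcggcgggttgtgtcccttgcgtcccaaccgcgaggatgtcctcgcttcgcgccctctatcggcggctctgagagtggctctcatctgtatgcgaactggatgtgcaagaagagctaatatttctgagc
The Il12a sequence, at chr3:68709260-68709460, holds none of the strings and is shown for contrast.
Il12a downstream region: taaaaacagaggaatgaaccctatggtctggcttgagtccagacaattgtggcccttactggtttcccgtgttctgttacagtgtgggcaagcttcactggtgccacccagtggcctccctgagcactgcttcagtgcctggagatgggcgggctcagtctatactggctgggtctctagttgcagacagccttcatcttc
The Il6 promoter is shown because its NF-kB string lay between 2 weakly supported regions. The upstream one was found only in a looser peak set of the series, with no peak in either replicate's own set. The other is the promoter region, which had a peak in replicate 2 and none in replicate 1. It is the RefSeq sequence of GRCm38.p6 at chr5:30012864-30013163, plus strand, from 250 bases before to 50 after the gene's start.
Il6 promoter: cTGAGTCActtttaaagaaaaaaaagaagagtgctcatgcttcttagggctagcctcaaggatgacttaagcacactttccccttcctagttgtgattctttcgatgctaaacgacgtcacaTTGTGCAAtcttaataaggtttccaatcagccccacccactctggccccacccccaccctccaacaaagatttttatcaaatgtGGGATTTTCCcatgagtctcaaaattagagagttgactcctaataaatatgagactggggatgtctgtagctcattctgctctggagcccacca

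All 10 genes had at least 1 open region, against 58.2% of all protein-coding genes. The genes were chosen with earlier results of these data known, so this and the shares below are descriptions. Il10ra had 8 regions, Il15 had 5, Il6 and Il6ra had 3 each, Il10, Il12a, Il12b and Osm had 2 each, and Il23a and Il27 had 1 each. Thus 4 of the 10 genes had 3 or more regions, against 16.6% of all genes. An open promoter, meaning a region with its nearest edge within 1 kb of a coding TSS, was present at 6 of the 10 genes, against 46.6% of all genes: Il6, Il6ra, Il10ra, Il12b, Il23a and Osm. No open promoter was called at Il10, Il12a, Il27 or Il15. A distal region was present at 9 of the 10, all except Il23a, against 36.3% of all genes. Of the 29 regions, 12 had their summit upstream of the gene, 9 in an intron, 7 downstream of the gene and 1, that of Il23a, inside the gene record but upstream of the start of its coding transcript. None lay in an exon of a coding transcript, and none was within 1 kb of the start of another protein-coding gene. Read from the thresholded set of 1 replicate alone, the counts were lower: replicate 2 gave 14 regions, 2 open promoters and 5 genes with a distal region, and replicate 1 gave 11 regions, 0 open promoters and 6 such genes. The permissive pseudoreplicated sets of the same replicates gave 41 and 40 regions, so these counts follow the stringency of the list as well as the replicate.

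**Figure D1:**
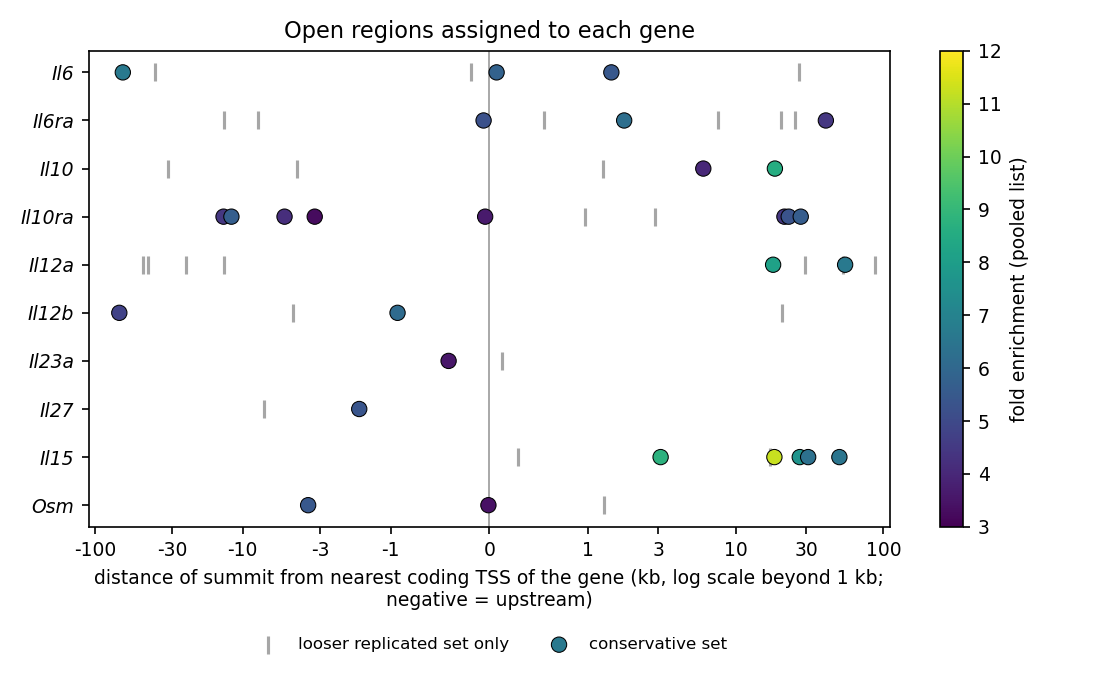
Position of each open region relative to the nearest coding TSS of its gene (kb, log scale beyond 1 kb, negative is upstream), with 1 row per gene; circles are the 29 regions of the conservative set coloured by fold enrichment in the pooled list, and grey ticks are the 28 regions found only in the looser replicated set. The 8 Il10ra regions fall into an upstream and a downstream group, and the 5 Il15 regions all lie downstream of the start.

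Il6, which encodes IL-6, lies on chromosome 5 from 30013114 to 30019981 on the plus strand. Its promoter region, from 30013132 to 30013375, had a fold of 5.80 in the pooled list, 4.73 in replicate 2 and no peak in replicate 1. The intronic region 1.44 kb downstream of a start, from 30014650 to 30014876, had 4.55 in replicate 1 and 5.02 in replicate 2 (mean 4.78 ± 0.330, SD, n = 2). A region 64.8 kb upstream, from 29947897 to 29948616, had 6.85 and 4.78 (5.81 ± 1.46), the widest gap between the replicates among the 26 regions that had a value in both. None of the 3 was in either replicate's own thresholded set. Within a single replicate they appeared only in the more permissive list, the promoter region in that of replicate 2 alone. The looser replicated set held a further Il6 region from 30012795 to 30013046, upstream of the start, with a pooled fold of 3.58 and no peak in either replicate's own set. That weak region contains the AP-1 string TGAGTCA and the C/EBP string TTGTGCAA of the promoter shown above. The NF-kB string GGGATTTTCC, at 30013070 to 30013079, lies in the 85 bases between the weak region and the promoter region.

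Osm, which encodes oncostatin M, lies on chromosome 11 from 4236420 to 4241026 on the plus strand. Its promoter region, from 4236283 to 4236991, had a fold of 3.09 in replicate 1 and 3.45 in replicate 2 (3.27 ± 0.253). A region 3.61 kb upstream, from 4232551 to 4233076, had 5.08 in both replicates (SD 0.000672). The upstream region was in the thresholded set of each replicate and the promoter region in neither, so at Osm the region away from the start was the stronger one.

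Il10, which encodes the anti-inflammatory cytokine IL-10, lies on chromosome 1 from 131019845 to 131024974 on the plus strand, and both of its regions lay downstream of the gene. The region 18.4 kb downstream of the start, from 131038141 to 131038556, had 7.30 in replicate 1 and 6.18 in replicate 2 (6.74 ± 0.793). The region 6.05 kb downstream, from 131025754 to 131026254, had 3.77 and 4.04 (3.91 ± 0.195). In the pooled list the more distant region stood at the 76.1 percentile of all regions by fold and the nearer one at the 6.71 percentile. At the summit of the stronger region the letters TGACTCA occur at 2 places whose starts are 11 bases apart. More than 1 AP-1 string was found in 2 of the 23 distal windows and in 0.779% of all distal regions. The 2 windows were this one and that of Il15 at 50.4 kb. That Il15 region had 52.9% of its bases in repeats and was in neither replicate's thresholded set. The promoter of Il10 was not called, and in the looser replicated set regions lay 4.30 kb upstream of the start, with 5.84 in replicate 1 and no peak in replicate 2, and 1.27 kb downstream, with 3.48 in replicate 2 and no peak in replicate 1.

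Il12a, the gene of the subunit found in IL-12 alone among IL-12 and IL-23, lies on chromosome 3 from 68690644 to 68698547 on the plus strand. Its region 17.9 kb downstream of a start, from 68709232 to 68709690, had 7.10 in replicate 1 and 8.49 in replicate 2 (7.79 ± 0.980). A second region 55.1 kb downstream, from 68746345 to 68746565, had 6.18 in replicate 1 and no peak in replicate 2. All bases of this second region are soft-masked as repeats in the genome sequence, whereas the first has 10.7% such bases. The looser series sets added more regions here than at any other of the 10 genes: 9 regions were assigned to Il12a in the replicated set and 11 in the pseudoreplicated set.

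Il12b, the gene of the subunit shared by IL-12 and IL-23, lies on chromosome 11 from 44400063 to 44414033 on the plus strand. The summit of its promoter region, from 44398969 to 44399265, lay 0.930 kb upstream of the start, and the region did not reach it. The fold was 5.20 in replicate 1 and 5.54 in replicate 2 (5.37 ± 0.241). A region 68.4 kb upstream, from 44331529 to 44331752, had 4.81 and 3.91 (4.36 ± 0.636). Neither was in the thresholded set of a replicate or in the IDR-thresholded set of the series. The promoter region moved out of the promoter class with a window of 500 bp.

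Il23a, the gene of the subunit that pairs with that of Il12b in IL-23, lies on chromosome 10 from 128296139 to 128298752 on the minus strand. It had 1 region, from 128298192 to 128298605, with 3.35 in replicate 1 and 3.59 in replicate 2 (3.47 ± 0.165), at the 2.84 percentile of all regions by fold. Il27, which encodes the cytokine-like subunit of IL-27, lies on chromosome 7 from 126589010 to 126594941 on the minus strand. It had 1 region 1.63 kb upstream of the start, from 126596266 to 126596836, with 5.34 and 4.97 (5.15 ± 0.262). Both genes lie in gene-dense sequence, with 12 and 7 other protein-coding genes starting within 100 kb. Of 13 regions within 100 kb of Il23a, 12 were nearest to another gene, among them the Pan2 promoter, with folds of 8.20 and 8.79, and the Stat2 promoter, with 13.3 and 11.1. Of 15 such regions at Il27, 14 were nearest to another gene. Under the rule of the nearest TSS, the strongest open chromatin at both loci thus belonged to neighbours. This was not particular to them. Most such regions were also nearest to another gene at Osm (12 of 14), Il10 (10 of 12), Il6ra (7 of 10) and Il10ra (9 of 17). By pooled fold the strongest belonged to a neighbour at Osm, Il6ra, Il10ra and Il12b, but not at Il10. At Il6, Il12a and Il15 no such region was nearest to another gene.

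Il15, on chromosome 8 from 82331632 to 82403222 on the minus strand, had the 2 regions of highest pooled fold among the 29, and all 5 of its regions were intronic. The region 18.3 kb downstream of the nearest start, from 82383295 to 82383740, had 9.39 in replicate 1 and 11.4 in replicate 2 (10.4 ± 1.43), and stood at the 92.4 percentile of all regions in the pooled list. The region 3.11 kb downstream, from 82398559 to 82399133, had 7.42 and 8.07 (7.74 ± 0.464). Both were in the thresholded sets of both replicates. The region at 27.2 kb had 7.15 and 6.60 (6.88 ± 0.389), that at 31.0 kb had 5.20 and 6.07 (5.64 ± 0.617), and that at 50.4 kb had 6.15 and 5.93 (6.04 ± 0.150). Among the regions of the conservative set, the lowest Il15 value was 5.20 in replicate 1 and 5.93 in replicate 2. The highest Il10ra value was 5.18 and 5.81. These gaps are smaller than the SD of 0.617 at the Il15 region at 31.0 kb. They are also smaller than the SD of 0.679 at the Il10ra region at 27.6 kb, so they do not separate the 2 genes. No promoter region of Il15 was in the conservative set. The looser replicated set held 1 with its summit 0.291 kb from a start, with 3.35 and 3.58, within the range of the Il10ra regions. An IRF string was found in 1 of the 29 regions, that at 3.11 kb. This share of 3.45% is near the 3.04% of all regions. The 3.11 kb region held 2 that overlap, TTTCAGTTTC and TTTCTATTTC. It was picked for these strings, and 0.297% of all distal regions hold more than 1.

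Il6ra, which encodes the chain that binds IL-6, lies on chromosome 3 from 89864059 to 89913196 on the minus strand. Its promoter region, from 89913108 to 89913484, had 4.78 in replicate 1 and 4.95 in replicate 2 (4.87 ± 0.117). The intronic region 1.76 kb downstream, from 89911110 to 89911731, had 5.40 and 6.04 (5.72 ± 0.450) and was the only Il6ra region in the thresholded sets of both replicates. A second intronic region at 40.8 kb, from 89872251 to 89872502, had 4.09 in replicate 2 and no peak in replicate 1. Il6ra was the only one of the 10 genes with a CpG-rich promoter: its ratio of observed to expected CpG within 500 bp of the start was 0.803, at the 79.6 percentile of all protein-coding genes.

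Il10ra, which encodes the ligand-binding chain of the IL-10 receptor, lies on chromosome 9 from 45253837 to 45269149 on the minus strand and had most regions. As many regions or more were assigned to 2.10% of all genes. The promoter region, from 45268569 to 45269340, had 3.38 in replicate 1 and 3.99 in replicate 2 (3.69 ± 0.428). Upstream of it, the regions at 3.26 and 5.22 kb had 2.89 and 3.89 in replicate 1 and 3.27 and 4.44 in replicate 2. Those farther out, at 11.9 and 13.5 kb, had 5.06 and 4.40 in replicate 1 and 5.57 and 3.96 in replicate 2. Downstream, beyond the end of the gene, the regions at 21.4, 22.9 and 27.6 kb from the start had 4.39, 5.18 and 4.85 in replicate 1 and 4.04, 4.93 and 5.81 in replicate 2. Between these groups, no summit of the conservative set lay in the gene body. All 8 regions were found in both replicates, and the 3 downstream ones were in both thresholded sets, which held none of the others in common. Per 100 kb of sequence within the reach of the rule, Il10ra had 13.9 regions and Osm 10.2, against a median of 1.11 over all genes; 3.61% and 7.24% of genes had a density as high.

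**Figure D2:**
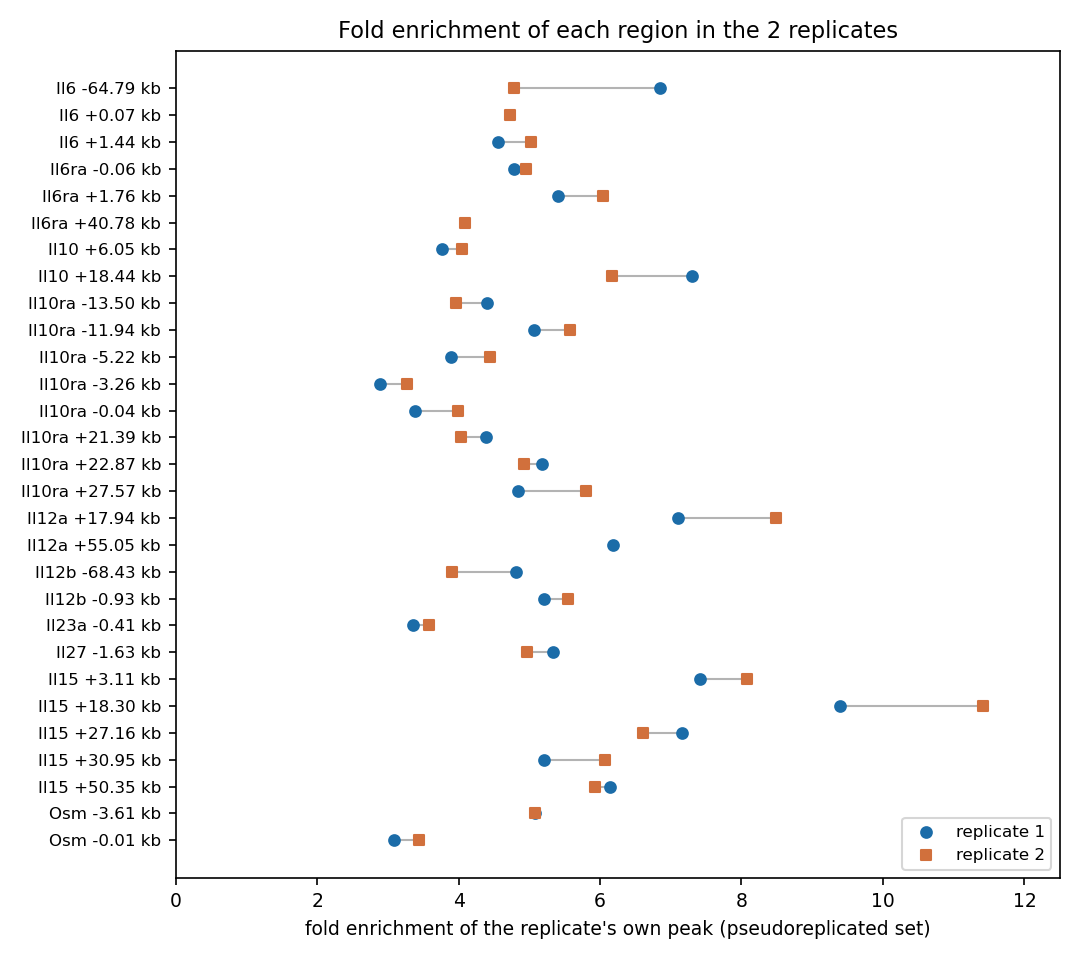
Fold enrichment of each of the 29 regions in replicate 1 (circles) and replicate 2 (squares), each read from the replicate's own pseudoreplicated peak set, with the region named by its gene and distance from the TSS; 26 regions have a value in both. The Il15 region at 18.30 kb is highest in both replicates, at 9.39 and 11.4.

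Of the 29 regions, 26 were found in both replicates' pseudoreplicated sets, against 91.1% of all regions. This held for 5 of the 6 promoter regions, against 96.3% of all promoter regions, and for 21 of the 23 distal regions, against 88.0% of all distal regions. The other 3 were the Il6 promoter region and the Il6ra region at 40.8 kb, found in replicate 2, and the repeat-covered Il12a region, found in replicate 1. The log2 ratio of the 2 replicates' folds, replicate 2 over replicate 1, ranged from -0.52 to 0.28 with a median of 0.10 at the 26 regions, against -0.03 at all regions found in both replicates. Replicate 2 was higher at 17 of the 26, against 44.6% of all regions found in both replicates. In the stricter thresholded sets, 9 of the 29 were found in both replicates, against 50.3% of all regions, and 13 in neither, against 29.7%. The 9 were 3 regions of Il10ra, 3 of Il15 and 1 each of Il6ra, Il12a and Osm. All 9 were distal, so 9 of 23 distal regions were in both thresholded sets, against 37.9% of all distal regions, and 0 of 6 promoter regions were, against 71.3% of all promoter regions.

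The pooled fold of the 29 regions had a median of 5.46, against 6.49 for all regions. For the 6 promoter regions the median was 4.44, against 7.64 for all promoter regions, and for the 23 distal regions it was 5.61, against 6.06 for all distal regions. The strongest region of a gene was above the upper quartile of all regions, a fold of 8.44, at 2 of the 10 genes, Il15 and Il10, against 48.6% of genes with an assigned region. Fold and −log10 p ordered the regions differently at the receptor genes. The 8 Il10ra regions had a median fold at the 12.2 percentile and a median −log10 p at the 43.2 percentile. The Il10ra region 22.9 kb downstream had the highest −log10 p of all 29, 65.7, with a fold of 5.29. Of the 29 regions, 6 had a fold under the median of all regions with a −log10 p over it, against 8.60% of all regions. They were 3 of Il10ra, 2 of Il6ra and 1 of Osm. Over all 28438 regions the 2 measures had a Spearman correlation of 0.839 across regions, which is a description because regions are not replicates.

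**Figure D3:**
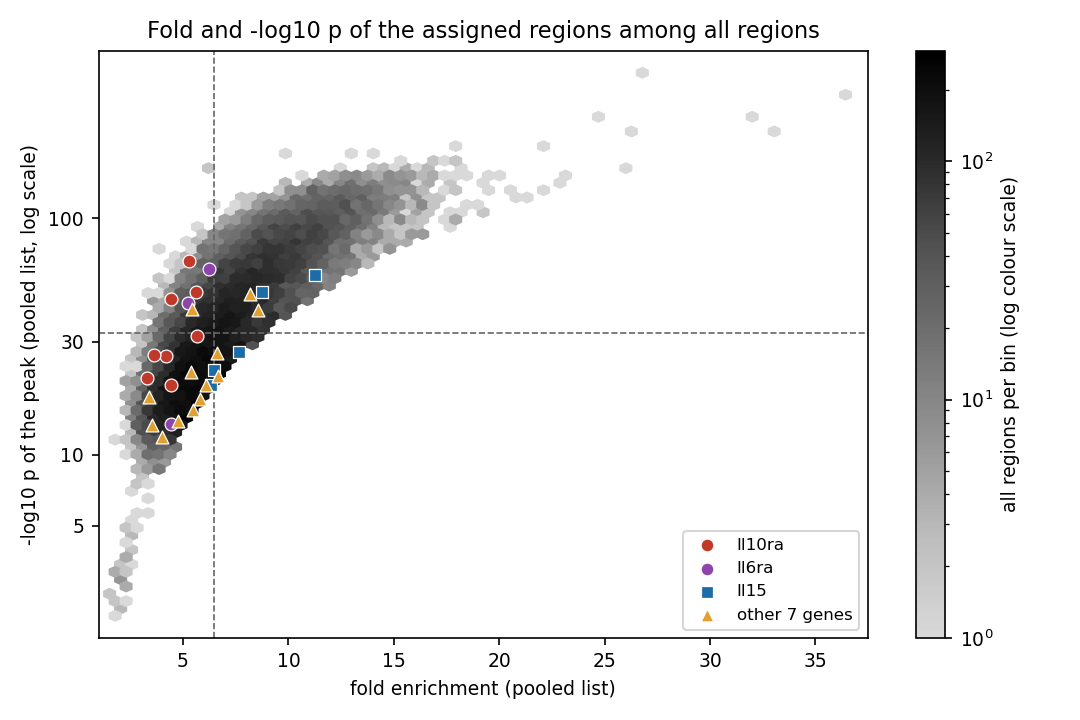
Fold enrichment against −log10 p (log scale) in the pooled conservative list, with grey hexagons for all 28438 regions and coloured marks for the 29 assigned ones; dashed lines are the medians over all regions. The Il10ra circles lie at low fold for their −log10 p, and the Il15 squares lie at the right among the assigned regions, up to a fold of 11.2.

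How many regions a gene had depended on the deposited set. Il10ra had 4 to 11 regions and Il15 had 3 to 7 over all 8 sets. Il6, Il12b, Il23a and Il27 had 0 regions in both replicates' own thresholded sets and 1 to 3 in the pseudoreplicated sets of the same replicates. The looser replicated set gave 57 regions in all, of which 28 did not overlap a conservative region. Of these 28, 6 had a peak in both replicates' pseudoreplicated sets and 14 in neither. Over all such regions 17.1% had a peak in both and 48.2% in neither. Their pooled median fold was 3.41, equal to that of all such regions. The 6 were at Il12a (2), Il6ra, Il10ra, Il15 and Osm.

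**Figure D4:**
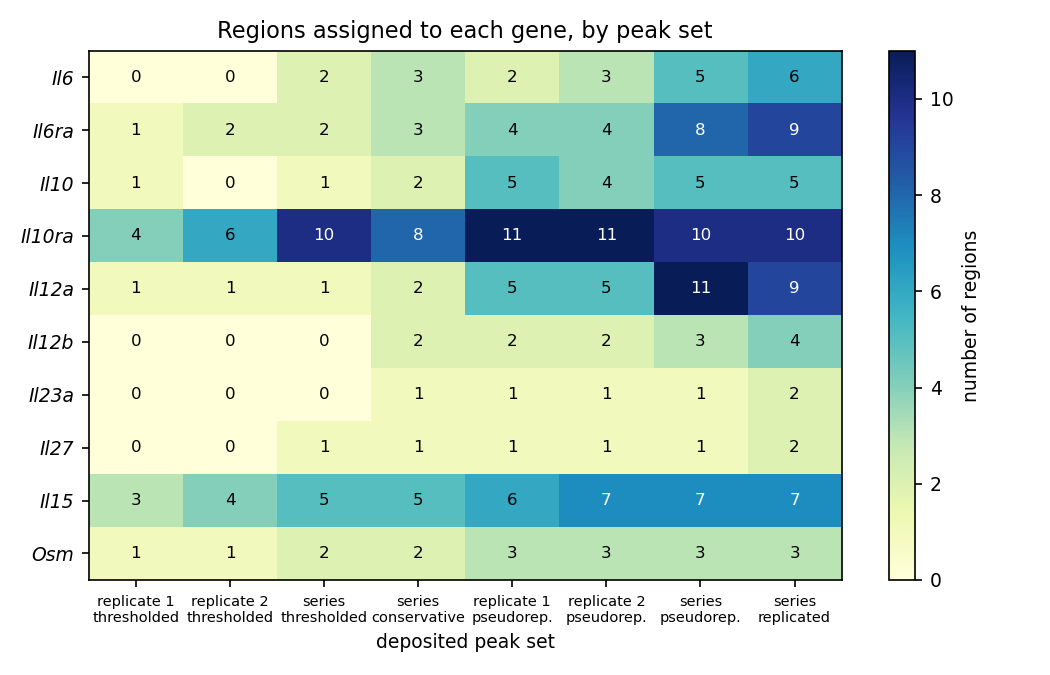
Number of regions assigned to each gene (rows) in each deposited peak set (columns), printed in each cell and shaded by count. Il10ra has most regions in all columns except the pseudoreplicated set of the series, where Il12a has 11 and Il10ra 10.

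Sequence features that did not enter the assignment were also read. At 9 of the 10 genes, all except Il6ra, the promoter CpG ratio was in the lower 50% of all genes. Of these 9 promoters, 5 were open, against 20.0% of the genes in that range. The 9 lay at the 21.8 to 44.7 percentiles, so that range also holds genes with lower ratios. Up to the ratio of Il6ra, 6 of the 10 promoters were open, against 38.3% of genes. Repeats covered over 50% of the bases in 2 of the 29 regions, against 1.97% of all regions. They were the Il12a region at 55.1 kb and the Il15 region at 50.4 kb. Both are distal, and 2.95% of all distal regions were so covered. Within 100 bases of the summit, an AP-1 string was found in 6 of 23 distal regions, at Il6ra, Il10, Il10ra and Il15, and in 11.3% of all distal regions. The longer ETS string was found in 4 of 23, at Il6ra, Il10ra and Il15, and in 11.9% of all distal regions, and a RUNX string in 7 of 23 and in 24.5%. A C/EBP string was found in 5 of 23, at Il6, Il10, Il10ra, Il27 and Il15, and in 13.5%, and a STAT string in 2 of 23 and in 5.38%. The CRE string was found in none of the 23 and in 0.768% of all distal regions. The shorter ETS core was found in 9 of 23 and in 38.1%. In 8 of the 29 windows, 23 of which are distal, none of the strings was found. This held for 40.2% of all regions and 32.9% of all distal regions. The NF-kB string was found in 1 of the 29 windows, that of Il12b, and in 1.12% of all regions. In the RefSeq promoter table, 4 of the 10 genes had an entry. Of 32851 promoters, 1.47% held the NF-kB string, 10.8% the C/EBP string and 7.81% the AP-1 string. The Il6 promoter holds all 3 of these strings, and the entries of Il6ra, Il12a and Il12b hold none of them. A match of letters is a description and does not show that a factor was bound.

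Other genes of the pathway were read from a list grouped by role, of which 30 of 45 had an open promoter, against 46.6% of all protein-coding genes. Of 11 receptor genes, 6 had an open promoter and 10 had a region. Il6st, the shared signalling subunit, had 7 regions and promoter folds of 8.82 and 10.6 in replicates 1 and 2, above the 4.78 and 4.95 of Il6ra. Il10rb, named here as the partner of Il10ra and chosen after its values were seen, had 2 regions and promoter folds of 5.41 and 5.19. Lifr had 5 regions and no open promoter, Il27ra had 2 regions with promoter folds of 6.19 and 6.85, and Il2rb had none. Of 9 partner and related cytokine genes, 2 had an open promoter and 5 had a region: Lif had 7 regions, Il21 had 2, and Ebi3, the partner of Il27, had 1, with promoter folds of 7.92 and 5.28. Il19 and Il20, which neighbour Il10, had none.

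Kinase and STAT genes were open at 8 of 10 promoters. Jak1 had 9 regions and promoter folds of 14.9 and 13.6, Stat5b had 6 regions, and Stat3, the main STAT of IL-6 and IL-10 signalling, had 5 with promoter folds of 7.36 and 8.43; Jak3 had none. Inhibitors of the pathway were open at 7 of 8 promoters, and all 8 had a region. Socs3, which is induced by STAT3 and blocks signalling through Il6st, had 6 regions with promoter folds of 5.54 and 5.12, Pias1 had 5 and the phosphatase gene Ptpn6 had 4. Of 7 regulators of these cytokines, all had an open promoter: Nfkbiz, an IkB-family protein needed for Il6 induction, had 16 regions, Nfil3 had 6 and Bcl3 had 5. The median pooled promoter fold was 8.52 for kinases and STATs, 7.43 for receptors, 6.69 for the 2 open cytokine genes, 6.55 for inhibitors and 5.10 for regulators, against 4.44 at the promoter regions of the 10 genes.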

How the data were processed

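The authors deposited ATAC-seq peak lists on mm10, called on each replicate alone and on both together, per the deposited README. No source used here names the aligner, the peak caller or their versions. The fold enrichment (a ratio), −log10 p and IDR score of a peak are the authors' deposited values, and no list was scaled. The conservative set holds no score under 540. Depth is unknown, since no read counts were used.

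Peaks on chromosomes 1 to 19, X and Y were merged where they overlapped, so that 39944 peaks gave 28438 regions, each with the largest fold among its peaks and the summit of its most significant one. A TSS is the start of a coding transcript of a protein-coding gene in GENCODE M21, and sequence is GRCm38.p6, the build of mm10; 0 regions ran past a chromosome end. A replicate's value is the highest fold of its pseudoreplicated peaks that overlap the region by 1 bp or more. All 10 genes are named, and of each pathway role the 3 genes with most regions and up to 2 with none. The genes, lists and strings were chosen with earlier results of these data known. No gene was sought for a pattern like a member's, because 2 replicates of 1 group give no pattern. Assignment was checked on simulated peaks. Python 3.11.15, numpy 2.4.6, pandas 2.3.3, matplotlib 3.10.9 and samtools 1.23.1 were used.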

Additional observations from a re-analysis of the deposited data

How the results depend on the processing

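Counts depended on the peak set and on the rule of the nearest TSS. Leaving out a replicate means reading the other replicate's own thresholded set, which also changes the stringency. Beside the 29 regions, the pseudoreplicated set of the series gave 54, the replicated set 57, an IDR score of 830 or more 17, all regions within 100 kb whatever the nearest TSS 94, and 1 replicate alone 11 to 14. Open promoters, 6 in the conservative set, were 3 in the IDR-thresholded set of the series, 2 at the score of 830, and 0 to 2 with 1 replicate alone. Genes with a distal region, 9, were 5 to 6 with 1 replicate alone. The median fold of 5.46 was 4.23 in the pseudoreplicated and 4.18 in the replicated set. Genes with a region above the upper quartile, 2, were 4 in the replicated set, 1 at the score of 830, 7 with all regions within 100 kb, and 1 with either replicate alone. Regions found in both replicates, 26 of 29, were 9 of 29 in the thresholded sets and 16 of 17 at the score of 830. The cause of these shifts was not tested. Of 71 such values, 51 stayed within 1.5 times the count or the spread between replicates. Some of the 51 could not move: open promoters do not use the distance or gene-body rule that some alternatives change. The tally is therefore no measure of stability. Of 110 counts for single genes, 46 did not. The median log2 difference between replicates ranged from 0.09 to 0.12 over its alternatives. No paired analysis was possible because there is 1 group and so nothing to pair.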
